A study of Mus musculus with 6 samples.

Results

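The genes described are the axon guidance families of ephrins and Eph receptors, semaphorins and plexins, Slits and Robos, and netrins with the Unc5 receptors and Dcc, measured in retinae of newborn mice. Members were the genes whose annotated symbol belongs to these families. Of the 19938 genes that had a probe group naming a single symbol, 65 were members. Where a gene had several such groups, which held for 5 members, the group with the highest mean over the 6 arrays stood for it. One further family gene of the gene table was not analysed here.

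The study compared 3 Meg2 knockout mice with 3 wild-type mice, all on the C57BL/6NTac background at postnatal day 0. Meg2 is a protein tyrosine phosphatase encoded by Ptpn9, and the sources used here do not state the kind of allele. Per the labels, each sample joined the 2 retinae of 1 genotyped pup, without treatment, and its total RNA was hybridised to an Affymetrix Mouse Gene 1.0 ST array. The measurement is a normalised log2 signal for each transcript cluster, that is, for a set of probes that the platform groups together.

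Guidance ligands steer growth cones by attraction or repulsion. Ephrins are membrane-bound ligands of the Eph receptor tyrosine kinases, class 3 semaphorins are secreted and signal through neuropilins and plexins, and most other semaphorins bind plexins directly. Slits repel through Robo receptors, and netrins attract through Dcc or repel through Unc5 receptors. In the retina these systems are known for the graded Eph and ephrin maps that order ganglion cell axons in the brain, for the exit of axons at the optic disc, for the choice of side at the optic chiasm and for the layering of amacrine and ganglion cell processes.

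The arrays were close to each other before any comparison was made. Array medians ran from 7.84 to 7.91 in log2 signal, and Pearson's r over clusters between pairs of arrays lay between 0.997 and 0.998. Ptpn9 read 9.31, 9.58 and 9.28 on the knockout arrays and 10.05, 9.93 and 9.94 on the wild-type arrays, so the targeted transcript was lower in each knockout sample (log2 difference -0.58, SE 0.087; limma, adjusted p = 0.437). Both arrays numbered 2 carried Xist signal (12.54 and 12.54) together with signal of the Y-linked gene Eif2s3y (7.66 and 7.76). Both arrays numbered 1 had high Xist and low Eif2s3y, and both numbered 3 the reverse. Xist and Y-linked signal together go against the label of 1 animal per sample for the 2 arrays numbered 2, and the cause was not tested. Counts over the members, and the values that move most, are also given without these arrays. Neural retina markers were well above background, with progenitor markers (11 measured) averaging 11.91 to 12.02 per array and ganglion cell markers (11 measured) 11.08 to 11.38.

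Most members gave a clear signal in newborn retina. As a yardstick for background, the 1023 olfactory receptor clusters, genes with little reason to be transcribed in retina, had a 95th percentile of log2 signal of 7.18. The mean signal over the 6 arrays lay above that percentile for 60 of the 65 members, and above the 8.51 median of all named clusters for 47. The 5 members within the olfactory receptor range were the receptor gene Epha1 (6.60), the secreted semaphorin genes Sema3c (6.32) and Sema3d (6.70), the plexin gene Plxnb3 (6.97) and the netrin gene Ntn5 (6.82). Probes differ in how strongly they bind, so these signals say which clusters stood clear of background and do not rank 1 gene's abundance against another's.

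**Figure D1:**
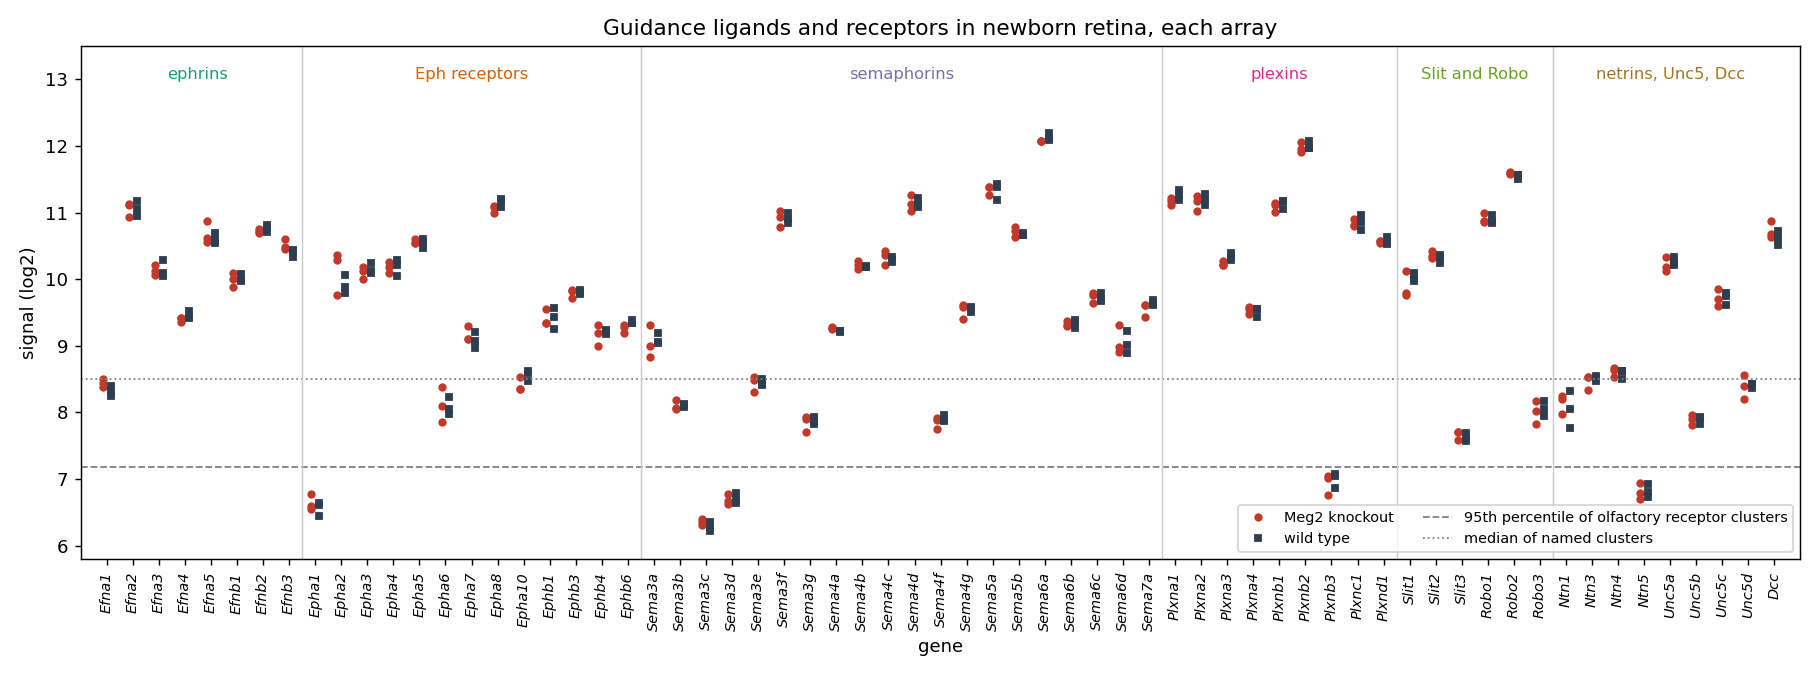
Log2 signal (vertical axis) of each of the 65 guidance genes (horizontal axis, grouped by family) on 3 knockout arrays (circles) and 3 wild-type arrays (squares), with the 95th percentile of olfactory receptor clusters (dashed, 7.18) and the median of named clusters (dotted, 8.51). Genes span log2 signals from 6.32 to 12.11, and for nearly every gene the knockout and wild-type points lie at the same height.

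Every family had at least 1 member clear of background. The family member with the highest signal was Efna2 (11.06) among ephrin-A genes, Efnb2 (10.75) among ephrin-B genes, Epha8 (11.11) among EphA genes and Ephb3 (9.80) among the 4 EphB genes measured. Among semaphorins it was Sema3f (10.91), a secreted ligand that acts through neuropilin-2, Sema4d (11.14), a ligand of plexin-B1, Sema5a (11.34), which is known to keep processes within the inner plexiform layer, and the transmembrane Sema6a (12.11), a ligand of plexins A2 and A4. Among plexins it was Plxna1 (11.22), Plxnb2 (11.99) and Plxnc1 (10.85). In the remaining families it was Slit2 (10.34), Robo2 (11.57), Ntn4 (8.60) and Unc5a (10.24), and Dcc stood at 10.67.

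Guidance genes differed little between the retinae labelled Meg2 knockout and wild type. In limma, 0 of the 65 members had an unadjusted p under 0.05, against 3.43% of the 23410 named clusters (1.69% higher and 1.74% lower), and 0 passed after adjustment over all of those clusters, where 0 of 23410 passed. The lowest member p was 0.0683 (adjusted p = 0.9995). The differences ran from -0.15 for Epha10 to 0.22 for Epha2 on the log2 scale, and 56 of the 65 were smaller than 0.1 in size. The median difference was -0.0090 over the members and 0.0012 over all named clusters, and 25 members lay above 0 and 40 below, where 50.7% of named clusters lay above 0. The count above 0 was 34 without knockout replicate 1, 35 without wild-type replicate 3 and 33 without both arrays numbered 2. The median size of a difference was 0.038 for members, 0.048 for all named clusters and 0.0435 for named clusters above the median signal.

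The precision of 3 arrays a group sets what these differences can show. The SE of a member ranged from 0.053 for Sema4a to 0.15 for Epha2. The 95% interval of the difference lay within 0.25 of 0 (1.19-fold either way) for 50 of the 65 members, and within 0.5 for all except Epha2. The median interval reached 0.16 to either side of its difference. A difference smaller than the distance from a gene's estimate to the end of its interval could not reach an unadjusted p under 0.05. This holds for this fit, which leaves out the replicate number. In whole retina, fewer cells of a type and less RNA per cell cannot be told apart.

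**Figure D2:**
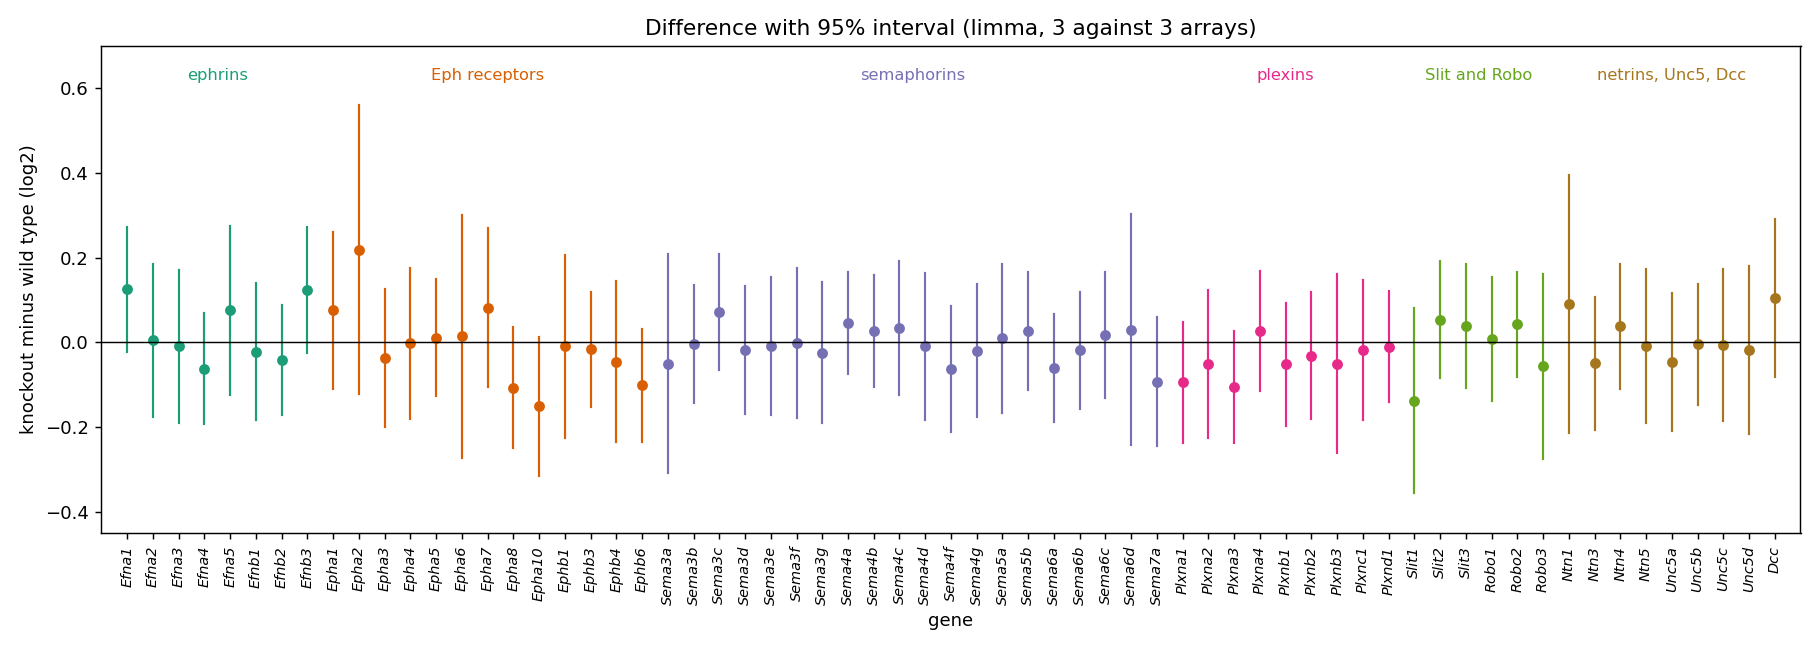
Difference between knockout and wild type on the log2 scale (vertical axis) for each of the 65 guidance genes (horizontal axis, coloured by family), with the 95% interval from limma as a bar. In this fit, which leaves out the replicate number, each interval crosses 0, and Epha2 has the widest (-0.12 to 0.56). With the number as a block, Epha10 and Efnb3 had an unadjusted p under 0.05 in limma.

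Arrays that carried the same replicate number resembled each other across genotypes, so the fit was repeated with the number as a block. In that fit 2 of the 65 members, or 3.08%, had an unadjusted p under 0.05, against 8.81% of named clusters (4.46% higher and 4.36% lower). They were Epha10 (log2 difference -0.15, SE 0.055) and Efnb3 (0.12, SE 0.049). Neither passed adjustment in the blocked limma fit (adjusted p = 0.543 and 0.548). Within the 3 numbers, 9 members were higher in the knockout each time and 11 lower each time, together 30.8% of members, beside 32.4% of named clusters.

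For 7 members, or 10.8%, the 3 knockout values all lay on 1 side of the 3 wild-type values, against 8.43% of named clusters. Higher in the knockout were 3, Efnb3, Robo2 and Sema4a (4.08% of named clusters), and lower were 4, Efna4, Ephb6, Plxna3 and Sema6a (4.35%). Their differences were small, from 0.043 to 0.12 in size. When each array was centred on its own median before the fit, the groups overlapped for every member, a count of 0. The share of named clusters after centring was not counted.

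Among ephrins, the differences were largest for Efna1 and Efnb3. Efna1 encodes a GPI-anchored ligand of EphA receptors, EphA2 among them, and read 8.39, 8.44 and 8.51 in the knockout and 8.40, 8.25 and 8.31 in the wild type (difference 0.13, SE 0.065). The groups overlapped at the arrays numbered 1, where the difference was -0.012. Efnb3 encodes a transmembrane ligand of EphB receptors and read 10.49, 10.46 and 10.61 in the knockout and 10.44, 10.33 and 10.43 in the wild type. All 3 Efnb3 knockout values lay above the wild-type values (difference 0.12, 95% interval -0.025 to 0.27).

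The ephrins best known from the retinotectal map did not differ beyond the spread between arrays. Efna5, graded across the nasal to temporal axis in ganglion cells, differed by 0.076 (SE 0.088). Its highest values were 10.87 and 10.69, on the knockout and wild-type arrays numbered 2, and without those arrays the Efna5 difference was 0.024. Efna2 differed by 0.0056 (SE 0.079), Efnb2, which is dorsal in the retina and arterial in vessels, by -0.040 (SE 0.057) and Efnb1 by -0.022 (SE 0.072). The remaining ephrins, Efna3 and Efna4, differed by -0.0090 and -0.062.

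The EphA receptors held both extremes of the whole group. Epha2 read 9.76, 10.29 and 10.37 in the knockout (10.14 ± 0.33, SD, n = 3) and 9.80, 10.07 and 9.89 in the wild type (9.92 ± 0.14, SD, n = 3). The knockout arrays numbered 2 and 3 were above all wild-type arrays and number 1 was below them, so the groups overlapped (difference 0.22, 95% interval -0.12 to 0.56). Without knockout replicate 1 the difference was 0.41, with an unadjusted p under 0.05 (limma, adjusted p = 0.863), without knockout replicate 2 it was 0.14 and without knockout replicate 3 it was 0.10. EphA2 is known for its part in the packing of lens fibre cells. Of the 11 lens markers measured, 9 lay above 0 and the lens alpha crystallin gene Cryaa read 7.70, 7.78 and 8.70 in the knockout against 7.60, 7.58 and 7.42. The mean lens marker level was 7.68, 7.57 and 7.80 on the knockout arrays and 7.58, 7.48 and 7.52 on the wild-type arrays, in order of number. These marker values stand beside Epha2 as description only, and the part of lens tissue in the Epha2 values was not tested.

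Epha10 encodes an Eph receptor that lacks kinase activity. It read 8.36, 8.54 and 8.36 in the knockout (8.42 ± 0.10, SD, n = 3) and 8.63, 8.60 and 8.48 in the wild type (8.57 ± 0.076, SD, n = 3). The groups overlapped only where knockout replicate 2 stood above wild-type replicate 3, and the difference was -0.15 (95% interval -0.32 to 0.014). A second Epha10 cluster differed by -0.070 (SE 0.077). Without knockout replicate 2 the difference was -0.21 (limma, adjusted p = 0.928), and without wild-type replicate 3 it was -0.19 (adjusted p = 0.9999), both with an unadjusted p under 0.05. Without both arrays numbered 2 the Epha10 difference was -0.19 (adjusted p = 0.9993) and did not pass the unadjusted threshold.

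None of the receptors analysed here that are known for setting ganglion cell projections passed the test. After adjustment 0 of the 23410 named clusters passed. Epha5 and Epha6, which are higher in temporal ganglion cells, differed by 0.012 (SE 0.061) and 0.015 (SE 0.13). Epha3, Epha4 and Epha7 differed by -0.037, -0.0019 and 0.082, and Epha8 by -0.11 (SE 0.063). Ephb1, the receptor of the ventrotemporal axons that stay on their own side of the brain, read 9.34, 9.56 and 9.34 in the knockout and 9.25, 9.57 and 9.44 in the wild type (difference -0.0091, SE 0.095). Ephb3 and Ephb4, the latter a marker of veins, differed by -0.016 and -0.046. Ephb6, which also lacks kinase activity, read 9.28, 9.19 and 9.31 against 9.34, 9.35 and 9.39 (difference -0.10, SE 0.058).

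The promoters of Epha2 and Epha10, the members with the largest difference in each direction, show how unlike the start regions of these receptor genes can be. Each sequence covers 250 bases before the transcript start and 50 after it on the + strand of RefSeq assembly GRCm38.p6, at chr4:141300971-141301270 for Epha2 and chr4:124881535-124881834 for Epha10, with CG dinucleotides in capitals.
Epha2: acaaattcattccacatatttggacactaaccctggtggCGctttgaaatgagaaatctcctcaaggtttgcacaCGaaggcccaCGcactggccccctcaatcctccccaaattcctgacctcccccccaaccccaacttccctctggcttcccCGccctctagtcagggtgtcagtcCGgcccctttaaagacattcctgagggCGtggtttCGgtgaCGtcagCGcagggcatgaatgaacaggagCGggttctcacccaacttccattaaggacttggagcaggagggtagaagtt
Epha10: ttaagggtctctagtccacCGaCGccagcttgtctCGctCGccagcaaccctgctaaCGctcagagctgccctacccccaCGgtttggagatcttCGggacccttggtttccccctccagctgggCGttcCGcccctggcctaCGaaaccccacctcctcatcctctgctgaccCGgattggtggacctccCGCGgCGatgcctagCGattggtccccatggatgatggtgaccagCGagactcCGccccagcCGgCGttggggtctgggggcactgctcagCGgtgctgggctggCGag
The Epha2 window holds 10 CG dinucleotides and the Epha10 window 21. RefSeq windows were at hand for 55 of the 65 members (71 windows), and their median CG count was 19 against 13 for 21262 windows of protein-coding genes. The motif TATAAA, on either strand, was in 2 of the 71 member windows (2.82%, those of Slit2 and Efnb2) and in 12.6% of the protein-coding windows, and GGGCGG, on either strand, in 71.8% and 46.2%. These are descriptions of the windows, and windows of 1 gene can overlap.

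Semaphorins differed by -0.092 to 0.072 over 20 genes, with 8 above 0 and a median of -0.0057. The extremes were Sema7a, which encodes the GPI-anchored ligand of plexin-C1, and Sema3c. Sema7a read 9.44, 9.62 and 9.61 in the knockout and 9.62, 9.69 and 9.64 in the wild type (difference -0.092, SE 0.067). Its lowest value was knockout replicate 1, and without that array the difference was -0.035. Sema3c lay in the olfactory receptor range of signal and differed by 0.072 (SE 0.061).

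Secreted class 3 ligands did not differ beyond the spread between arrays. Sema3a, the growth cone collapsing ligand of neuropilin-1, read 9.00, 9.32 and 8.84 in the knockout and 9.04, 9.20 and 9.06 in the wild type (difference -0.050, SE 0.11). Sema3e, which binds plexin-D1 without a neuropilin and is made by retinal ganglion cells to shape vessels, differed by -0.0084 (SE 0.072), and Sema3f by -0.0015 (SE 0.078). Sema3b, Sema3d and Sema3g differed by -0.0030, -0.018 and -0.024.

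No membrane-bound semaphorin passed the test. Sema4a, whose loss is known to cause photoreceptor degeneration, had the lowest SE of all members, at 9.28, 9.27 and 9.26 in the knockout and 9.21, 9.22 and 9.23 in the wild type. Those groups did not overlap, yet the difference was 0.047 (SE 0.053). The other class 4 genes differed by -0.062 (Sema4f) to 0.034 (Sema4c), Sema5a and Sema5b by 0.010 and 0.027, Sema6b and Sema6c by -0.019 and 0.018, and Sema6d, which acts at the optic chiasm, by 0.030 (SE 0.12). Sema6a read 12.07, 12.07 and 12.08 in the knockout and 12.09, 12.12 and 12.19 in the wild type (difference -0.060, SE 0.056).

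Of the 9 plexins, 8 lay below 0, with a median of -0.050 and a range from -0.10 to 0.027. Within replicate number 1 the plexin median was 0.020, and within numbers 2 and 3 it was -0.056 and -0.040. Without both arrays numbered 2, 6 of the 9 lay below 0, with a median of -0.020. Plxna3, an X-linked receptor subunit for class 3 semaphorins and for Sema5a and Sema5b, read 10.22, 10.22 and 10.28 in the knockout and 10.29, 10.35 and 10.40 in the wild type. The groups were separate by a narrow margin (difference -0.10, 95% interval -0.24 to 0.028). Plxna1 differed by -0.094 (SE 0.063), Plxna2 by -0.051 (SE 0.077) and Plxna4, the partner of Sema6a in the inner plexiform layer, by 0.027 (SE 0.063). The B plexins differed by -0.052 (Plxnb1), -0.031 (Plxnb2) and -0.050 (Plxnb3), Plxnc1 by -0.017 and Plxnd1, the endothelial receptor of Sema3e, by -0.010 (SE 0.057). Beside these values, 11 of 12 endothelial markers lay above 0, with a median of 0.12. Cdh5, the gene of VE-cadherin, was at 0.54 (SE 0.14; limma, adjusted p = 0.9995), and Kdr was the 1 below 0, at -0.070 (SE 0.083).

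The Slit and Robo genes were led by Slit1, a repellent made in the retina and at the chiasm. Slit1 read 9.80, 10.12 and 9.76 in the knockout and 10.02, 10.10 and 9.97 in the wild type. The knockout arrays numbered 1 and 3 lay below every wild-type array and number 2 above them (difference -0.14, SE 0.096). Without knockout replicate 2 the difference was -0.25 (limma, adjusted p = 0.866), and without both arrays numbered 2 it was -0.22 (adjusted p = 0.9993), both with an unadjusted p under 0.05. Without knockout replicate 1 it was -0.091 and without knockout replicate 3 it was -0.072.

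The other genes of this pathway stood close to 0. Robo2, the main Slit receptor of ganglion cell axons, read 11.59, 11.61 and 11.58 in the knockout and 11.51, 11.57 and 11.57 in the wild type (difference 0.043, SE 0.054). Those groups were separate by a narrow margin. Robo1 differed by 0.0087 (SE 0.064), and Robo3, known for letting hindbrain axons cross the midline, by -0.056 (SE 0.096). Slit2 differed by 0.054 (SE 0.061) and Slit3 by 0.039 (SE 0.065).

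Dcc, the netrin receptor that guides ganglion cell axons into the optic nerve, was higher in the knockout within each replicate number. It read 10.63, 10.87 and 10.68 in the knockout and 10.52, 10.72 and 10.62 in the wild type, so the groups overlapped (difference 0.10, SE 0.082). Within numbers 1, 2 and 3 the Dcc difference was 0.11, 0.15 and 0.056, and with the block its SE was 0.047 (limma, adjusted p = 0.577). Without knockout replicate 2 it was 0.033, and without wild-type replicate 1 it was 0.055.

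Netrin and Unc5 genes did not differ beyond the spread between arrays. Ntn1, which is made at the optic nerve head, read 8.25, 7.97 and 8.21 in the knockout and 8.32, 7.77 and 8.06 in the wild type (difference 0.091, SE 0.13). The basement membrane netrin Ntn4 differed by 0.038 (SE 0.065) and Ntn3 by -0.049 (SE 0.069). All 4 Unc5 genes lay within 0.05 of 0, from -0.047 for Unc5a to -0.0043 for the vascular receptor Unc5b, with Unc5c at -0.0057 and Unc5d at -0.017.

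**Figure D3:**
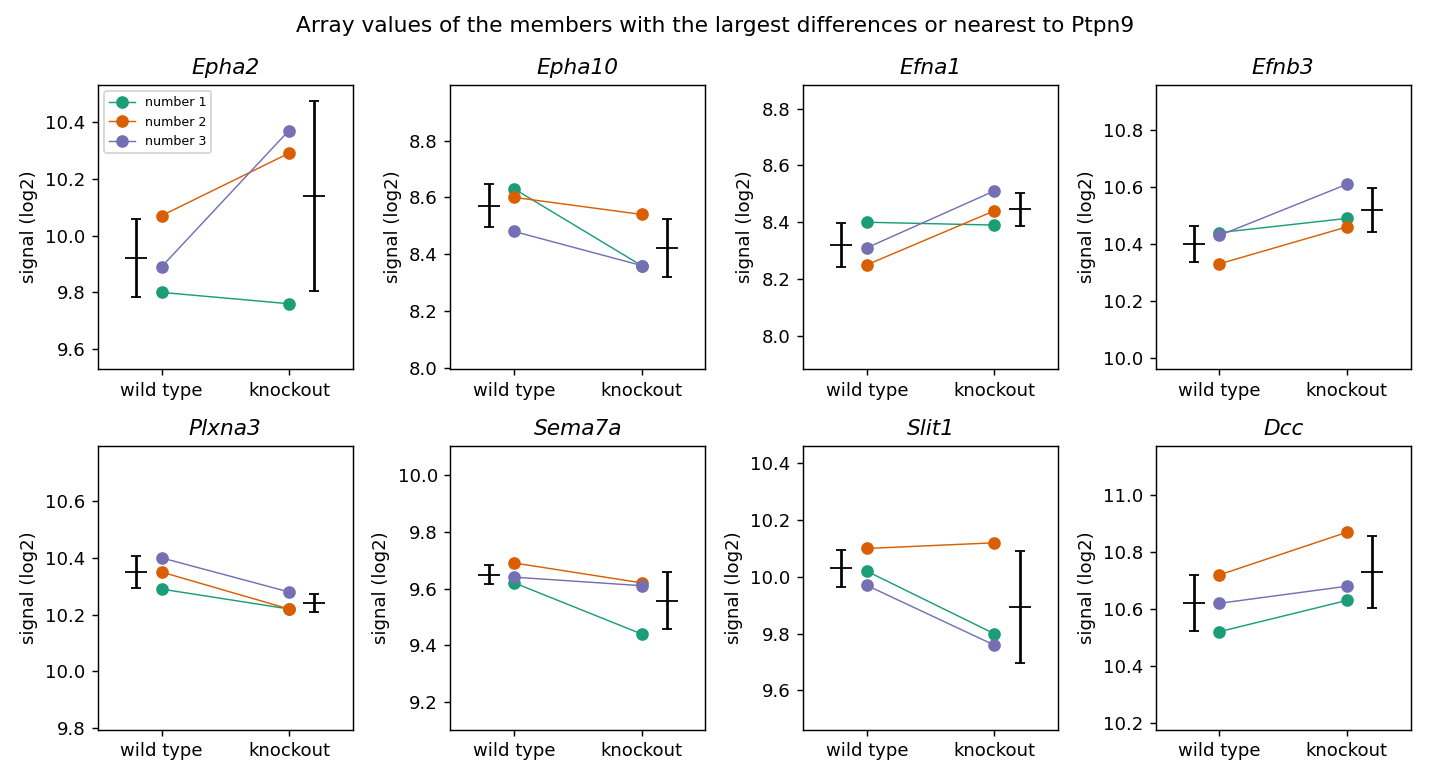
Log2 signal (vertical axis) on each wild-type and knockout array for 8 members, with lines joining arrays of the same replicate number and bars giving the mean and SD of 3 arrays. Each panel spans 1 log2 unit. Epha2 has the widest spread, Efnb3 and Plxna3 have separate groups, and in Slit1 the array pair numbered 2 stands apart from the others.

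Members were also compared between replicate numbers. In the blocked fit an F test of the number gave an unadjusted p under 0.05 for 17 of the 65 members (26.2%), against 23.2% of named clusters, and for 0 members after adjustment (lowest adjusted p = 0.138; 3 of 23410 clusters passed, or 0.0128%). The share was thus near that of all clusters. Of the 17, 11 had their highest mean in the arrays numbered 2, among them Sema6d, Epha6, Sema3a, Ephb1, Efna5, Dcc and Unc5c. The same count was not made over named clusters, so it cannot be read as a trait of the members. Epha6 read 7.85 and 7.98 on the arrays numbered 1, 8.38 and 8.24 on those numbered 2 and 8.10 and 8.06 on those numbered 3, knockout first. Ntn1 went the other way, with means of 8.29, 7.87 and 8.13 for numbers 1, 2 and 3.

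Markers of ganglion cells, which express many of these genes, were also highest on the arrays numbered 2. The mean of the 11 ganglion cell markers stood at 11.13, 11.38 and 11.08 in the knockout and 11.16, 11.30 and 11.24 in the wild type. Gap43, a growth cone protein gene, read 11.01, 11.37 and 10.99 in the knockout and 11.12, 11.27 and 11.16 in the wild type. The arrays numbered 2 are also those with Xist and Y-linked signal together, while number 1 had high Xist and low Eif2s3y and number 3 the reverse. The F test of the number therefore cannot be told apart from a contrast of Xist and Y-linked signal. The part of this signal or of ganglion cells in the members' values was not tested.

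**Figure D4:**
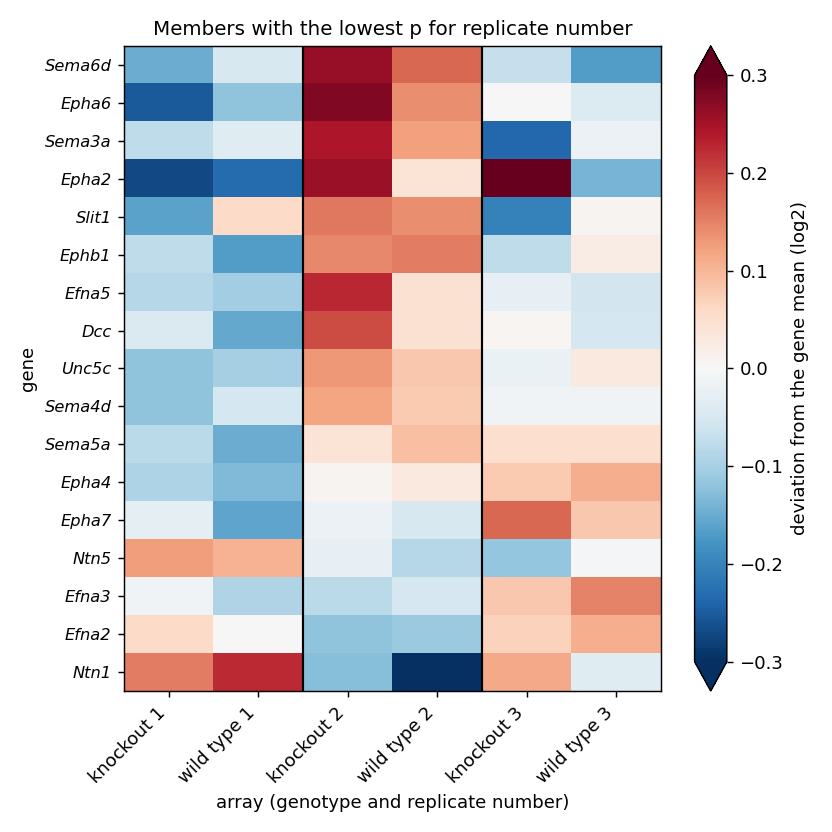
Deviation of each array from the gene's own mean over 6 arrays on the log2 scale (colour, clipped at 0.3 either way) for the 17 members with an unadjusted p under 0.05 in the F test of replicate number (rows), with arrays ordered by replicate number (columns). Both arrays numbered 2 are above the gene mean in the upper rows (such as Sema6d and Epha6) and below it in the lowest rows (Efna2 and Ntn1).

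Other genes of the guidance pathways were taken from 5 lists. Of the 107 distinct genes measured, 5 were higher and 1 lower at an unadjusted p under 0.05, together 5.61% against 3.43% of named clusters, and 0 passed adjustment in limma. The median difference was -0.0036, and 51 of the 107 lay above 0. Neuropilins, the ligand-binding partners of plexins, differed by 0.18 (Nrp1, SE 0.12) and -0.0036 (Nrp2, SE 0.082). With the replicate block, 10 of the 107 were higher and 3 lower at an unadjusted p under 0.05, together 12.1% against 8.81% of named clusters, and 0 passed adjustment in limma (lowest adjusted p = 0.253). These 13 were the 6 genes called without the block and 7 others, namely Robo4, Cd72, Zic2, Nrp1 and Cxcl12 (higher) and Cyp26a1 and Flrt1 (lower).

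Among the 20 other guidance ligands and receptors measured, Neo1 had an unadjusted p under 0.05. Neo1 encodes neogenin, a relative of Dcc that binds netrins and repulsive guidance molecules, and read 11.89, 11.95 and 11.95 in the knockout and 11.72, 11.82 and 11.83 in the wild type (difference 0.14, SE 0.059, adjusted p = 0.9995). Its groups did not overlap, but the unadjusted p was over 0.05 when any array except knockout replicate 1 was left out. Robo4, an endothelial Robo, differed by 0.19 (SE 0.085), and with the block its SE was 0.046 (adjusted p = 0.514). Among 44 cytoplasmic effectors Srgap3, a GTPase-activating protein gene whose product binds Robo receptors, was higher in the knockout by 0.13 (SE 0.056, adjusted p = 0.9995), and its unadjusted p was over 0.05 when any single array was left out.

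The co-receptor list of 11 genes had Itga1, the integrin alpha 1 gene, at 0.35 (SE 0.064, adjusted p = 0.801), with knockout values of 6.39, 6.32 and 6.47 and wild-type values of 6.03, 6.00 and 6.11, all within the olfactory receptor range. The list of 11 proteases and phosphatases had Ptprb, an endothelial phosphatase gene, at 0.27 (SE 0.10) and the protease gene Mmp9 at -0.14 (SE 0.060). Of 21 transcription factors and patterning genes, Bmp4, which specifies dorsal retina, differed by 0.42 (SE 0.14), with a knockout replicate 1 value of 8.96 above 8.40 and 8.48 in the other knockout arrays. Without knockout replicate 1 the Bmp4 difference was 0.25 (adjusted p = 0.863). The unadjusted p of Bmp4 was over 0.05 without wild-type replicate 1, that of Ptprb without knockout replicate 1 or 3 or wild-type replicate 2, and that of Mmp9 without knockout replicate 3 or any wild-type array. None of these passed adjustment (adjusted p = 0.9995 for Ptprb, Mmp9 and Bmp4). Beside the vascular genes in these lists, the mean of the 12 endothelial markers was 7.89 to 8.19 per knockout array and 7.82 to 7.96 per wild-type array, and its part in those genes was not tested.

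The guidance genes are spread over the genome, and 6 members lie on chromosome 9 with Ptpn9. By the order of measured genes in assembly GRCm38.p6, Sema7a is the nearest, 25 genes from Ptpn9, and Ephb1, Robo3, Sema3b, Sema3f and Plxnb1 lie 296 to 455 genes away, at differences of -0.0091, -0.056, -0.0030, -0.0015 and -0.052. Of the other pathway genes, Isl2, Islr2 and Neo1 lie 14, 30 and 41 genes from Ptpn9 and differed by -0.034, 0.0052 and 0.14. Away from chromosome 9, the 5 members on chromosome 16 besides Ephb3 (Epha3, Epha6, Robo1, Robo2 and Sema5b) differed by -0.037 to 0.043. The 4 members on chromosome 4 (Epha2, Epha7, Epha8 and Epha10) included both extremes of the whole group, at -0.15 and 0.22.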

How the data were processed

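Total RNA of 6 retina samples was measured on whole-transcript arrays. Values were deposited on the log2 scale, 1 per transcript cluster, and made with Affymetrix Expression Console and RMA, with Transcriptome Analysis Console also named, per the submitters' processing notes. RMA sets all arrays to 1 distribution, which removes a shift shared by most transcripts. The sources used here state no software version.

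Of 35557 clusters, the platform annotation named 1 gene for 21789 and several for 1621. The 23410 named clusters were fitted with limma 3.58.1 (lmFit, eBayes) in R 4.3.3, knockout minus wild type, with Benjamini-Hochberg adjustment over all of them and no filter on dim signal. Intervals use the moderated SE. The fit was checked on simulated arrays with independent errors and known changes of 1 log2 unit. That check does not cover differences as small as those of the members, or the likeness of arrays with the same number. Tables and figures used pandas 2.3.3 and matplotlib 3.10.9 in Python 3.11.15. Gene symbols were matched through Entrez identifiers to GRCm38.p6 (21698 clusters).

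Replicate numbers come from the sample titles, which call the samples biological replicates and do not say what a number marks. Deviations from the group means correlated at 0.476, 0.485 and 0.455 between arrays of the same number, over the 0.1 taken as pairing. The members and lists were chosen with earlier results of these data known. Genes named were members with an unadjusted p under 0.05 or groups that do not overlap, the brightest and the most different member of each family, textbook genes of retinal guidance, and up to 4 genes per other list with an unadjusted p under 0.05. Other genes, and single markers, were chosen after their values were seen. The alternatives changed the scaling (median centring or cyclic loess), the variance model (a trend, robust estimates or array weights), the clusters tested (2 filters on signal, or all rows), the handling of genes with several clusters, the replicate block and the arrays used (each left out, and both arrays numbered 2 left out, which was added after seeing the data).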

Additional observations from a re-analysis of the deposited data

How the results depend on the processing

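Over 17 alternatives, 0 members had an adjusted p under 0.05 in limma. The replicate block gave 1 member higher and 1 lower at an unadjusted p under 0.05, 2063 named clusters at that level in place of 803, and 1 cluster past adjustment. Leaving out both arrays numbered 2, chosen after seeing the data, gave 0 members higher and 1 lower (Slit1) at an unadjusted p under 0.05. Beside them, 706 of the 23410 named clusters were at that level. In that fit 18 members had groups that do not overlap, and the median difference was 0.0030. With each array left out in turn, 0 to 1 members were higher and 0 to 2 lower, 9 to 13 did not overlap, the median difference ran from -0.021 to 0.0086, and 636 to 1298 named clusters had an unadjusted p under 0.05. Fewer arrays make separate groups more common by construction. The share of named clusters with separate groups was not counted under any alternative, so these member counts have no background beside them. Median centring gave a median difference of -0.014 and 0 members that do not overlap. The filter at the median of signal left 431 named clusters at an unadjusted p under 0.05, and every row of the table gave 1331, as fewer and more clusters were tested. The Ptpn9 difference lay between -0.69 and -0.52 throughout. Of the 13 members followed singly, each kept its sign under every alternative that held it. They were picked for their differences or separate groups in these same arrays. Several alternatives also leave a difference unchanged, so the kept signs were largely fixed in advance. Among the 107 other pathway genes the block raised the count at an unadjusted p under 0.05 from 6 to 13. The number of arrays limits every comparison.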
